A study of Mus musculus with 6 samples.

Results

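The 108 miRNAs described here are the mouse miRNAs that the array numbers from 3050 to 3113, leaving out those that the files place in the miRNA cluster of chromosome 12. They were chosen by name and probe position alone, out of 1881 mouse miRNAs on the array. That choice was made with earlier results of these data known, so it was not blind to them. The members come from 52 hairpin numbers read by 224 of 4415 mouse probes. Exosomal RNA of RAW 264.7 cells, a mouse macrophage line, was measured on 6 one-colour Agilent miRNA arrays. In 3 LPS samples the cells had received lipopolysaccharide (LPS), a bacterial cell wall component, at 2 µg/mL in complete medium, and the supernatant was taken after 72 h. The 3 control samples carry the treatment label control, with no incubation time of their own, so culture time and LPS cannot be told apart. Exosomes of both groups were isolated from supernatant on size-exclusion columns. No label says that the replicates were separate cultures, so the p-values measure only how far these samples spread, and that spread may be technical.

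A miRNA is cut from the arms of an RNA hairpin, and the arm nearer the 5′ end of the hairpin gives the 5p product and the other arm the 3p product. Usually 1 of these is loaded into an Argonaute protein, and its seed, bases 2 to 8, pairs with target messenger RNAs. High registry numbers mark sequences found late, mostly by deep sequencing of small RNAs, and many of them are scarce or come from single tissues.

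Of the 108 members, 21 were detected on at least 1 array. Mature sequences were taken from the RefSeq mouse miRNA table (assembly GRCm38.p6), which matched 96 of the 108 members and 18 of these 21. The sequences below belong to members detected on all 6 arrays and, last, to a pair whose LPS signal could be set against a bound in the controls; the seed is in capitals. miR-3106-5p, also detected on all 6 arrays, is named only.
miR-3059-3p: cCUCUAGGgaagagaagguugg
miR-3067-3p: cCAAGCGGcugcccugggagagg
miR-3082-5p: gACAGAGUgugugugucugugu
miR-3091-5p: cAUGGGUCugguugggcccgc
miR-3095-3p: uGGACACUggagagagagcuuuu
miR-3098-5p: uCCUAACAgcaggaguaggagc
miR-3099-3p: uAGGCUAGagagagguugggga
miR-3102-5p.2-5p: gGUGGUGCaggcaggagagcc
miR-3081-5p: gACUGGAGcuuggagcggugagc
miR-3102-5p: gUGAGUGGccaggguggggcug
No seed in this list occurs more than once. The seed of miR-3102-5p is shared with miR-702-5p, which was detected on no array. The seeds of the other sequences listed were found in no other miRNA of the array that matched the table.

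Each control array detected fewer members than any LPS array, and fewer miRNAs in all. A miRNA counts as detected when the files flag it, that is, when any of its probes exceeds 3 times its error. The control arrays detected 9, 10 and 10 members and the LPS arrays 21, 21 and 20. These are means of 8.95% and 19.1% of the members, against 11.6% and 22.8% of all 1881 miRNAs. Counting any array, 19.4% of the members and 24.7% of all miRNAs were detected. On all 6 arrays, 8.33% of the members and 10.5% of all miRNAs were detected. Among miRNAs numbered below 1000, 29.9% of 819 were detected on at least 1 array. Among the 822 numbered above the range, 20.4% were. These shares were not tested against each other.

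**Figure D1:**
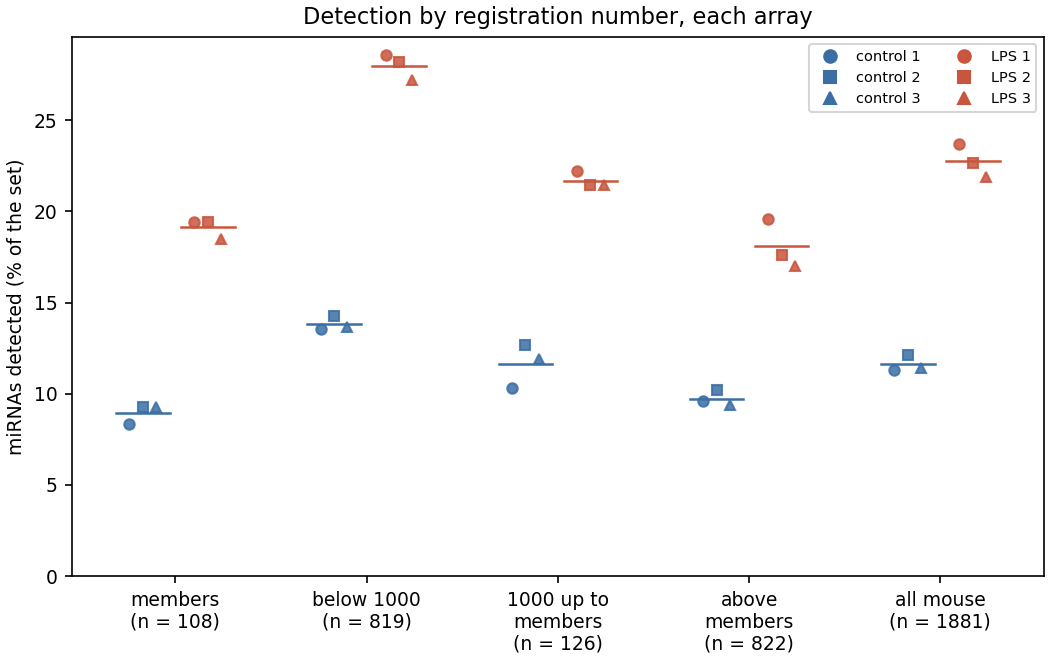
Percentage of the miRNAs of each number class detected on each array (y axis, from 0), for the 108 members, lower and higher numbers and all 1881 mouse miRNAs. Points are arrays and lines are group means; in each class the LPS arrays lie above the control arrays, and the members run from 9 to 10 detected on control arrays and from 20 to 21 on LPS arrays.

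Both arms contributed, but rarely from 1 hairpin. Of 53 members from 5p arms 13 were detected, and of 55 from 3p arms 8 were. The 21 detected members came from 19 hairpin numbers, and miR-3102 alone among them gave products of both arms. The RefSeq gene table placed the hairpins of 19 of the 21 within the span of a protein-coding gene. Any overlap counted as within, on either strand, here and wherever a hairpin is said to lie within a gene. The exceptions were miR-3098-5p, with no gene around it, and miR-3093-5p, within the long noncoding RNA gene Gm3764. Counted by hairpin over all members, 46 of 55 found there lay within such a span. The first count is of members, and miR-3102 enters it more than once, so these shares are not directly comparable. Of the other 87 members, none was well above background on any array, a stricter call that asks each spot to exceed the background by 13 times its SD on more than 50% of a probe's spots. The highest signal among them on any array was 18.1 intensity units, for miR-3101-3p. For these members the arrays set only a limit.

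How each member compares between the groups rests on the scale of the arrays. The 75th percentile of signal over the 198 miRNAs detected on all 6 arrays was 477 ± 41.0 on control arrays and 2229 ± 180 on LPS arrays (SD, n = 3 each), a ratio of 4.67 or 2.22 on the log2 scale. The 4 spiked-in RNAs had a geometric mean signal of 2707 ± 83.9 in control and 2377 ± 181 in LPS, a ratio of 0.878. Scaled values divide the first ratio out, so a member with equal signal on every array reads about 2.22 lower in LPS on the scaled log2 scale. The labels give 0.5 µg of RNA for labelling, and more vesicles and more miRNA in each vesicle cannot be told apart in such samples. Of 8 macrophage and myeloid miRNAs fixed as a check of the cell type, 7 were detected on all 6 arrays. The summed signal of these 8 ran from 5428 to 6579 in control and from 62875 to 79574 in LPS. miR-21a-5p and miR-146a-5p made up 84.6% and 83.1% of it, while miR-223-3p, a myeloid miRNA, read 42.6 ± 3.81 and 421 ± 34.3 (SD, n = 3 each). Of the other marker lists, none of 5 erythroid and serum, 3 muscle and 2 neural miRNAs was detected, and 1 of 5 epithelial miRNAs, miR-200c-3p, was detected in LPS only. Their summed signals ran from 36.2 to 40.9 in control and 58.8 to 68.5 in LPS for the erythroid and serum list, and from -0.33 to 4.81 and 53.6 to 64.2 for the epithelial list. They ran from 11.0 to 14.1 and -2.08 to 5.82 for the muscle list, and from -0.35 to 3.82 and -3.85 to 2.65 for the neural list. The effective feature size, a fraction that the scanner software reports for the spots, was 0.6 on every control array. It was 0.812, 0.829 and 0.815 on the LPS arrays, so it cannot be told apart from LPS. The part of these cell types, of feature size and of array brightness in the results below was not tested.

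After scaling, 8 of the 9 members detected on all 6 arrays were lower in LPS, and 1 was higher. Of 20 members tested, 11 passed the threshold as higher in LPS and 8 as lower, with an adjusted p under 0.05 from limma with Benjamini-Hochberg adjustment over all 412 tested miRNAs. Over all tested miRNAs 65.5% were called higher and 26.7% lower. Restricted to the 198 found on all 6 arrays, 58.1% were called higher and 38.4% lower. All 8 members called lower were detected on all 6 arrays. Of the 11 called higher, 8 had control values that the arrays read only as a bound above their LPS level, or no array well above background. Their direction is not read from the scaled values, which leaves 3: miR-3102-5p.2-5p, miR-3081-5p and miR-3102-5p. Leaving out miR-3070-2-3p, whose position is discussed further on, gave 10 higher and 8 lower. The LPS arrays lay on both rows of the slide and the control arrays on the first row only. With the row as a block 8 members were called higher and 7 lower (64.8% and 24.8% of all tested). Within the first row, with 1 LPS array, 9 and 7 were (59.5% and 20.5%).

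The counts moved with the scale for the members and for all tested miRNAs alike. Without scaling 15 members were called higher and 4 lower (88.3% and 9.47% of all tested), and of the 198 miRNAs 78.8% and 16.7% were. With the spiked-in RNAs as scale the counts were 16 and 4 (89.8% and 9.22%), and with the percentile over all miRNAs 15 and 5 (81.8% and 14.3%). Quantile normalization gave 10 and 8 (64.6% and 26%). Normexp background correction, followed by the main scaling, gave 0 and 20 (27.4% and 68.9%). It added an offset of 50 units to every signal before that scaling, and the part of the offset in these calls was not tested. The gene total signal of the files gave 12 and 7 (66.3% and 22.3%), the mean over probes 8 and 8 (62.9% and 27.4%), and the deposited log2 values 11 and 8 (69.9% and 22.3%). A doubled floor gave 7 and 8 (54.4% and 24.5%). A fit to the 198 miRNAs alone gave 1 and 8 (58.1% and 38.9%).

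The median scaled change of the 9 was -2.14 on the log2 scale, and 0.77 over the 198 miRNAs. Without any scaling the medians were 0.08 and 2.99, and with scaling to the spiked-in RNAs the median of the 198 was 3.18. The scaled control and LPS values did not overlap for any of the 9. Such separation held for 39.9% of the 198 miRNAs with LPS lower and 58.6% with LPS higher. In unscaled signal, 4 of the 9 were lower in LPS with no overlap, 4 were higher with no overlap and 1 overlapped. Over the 198 miRNAs, unscaled signals were lower without overlap in 17.2% and higher without overlap in 78.8%. The changes of the 9 members spanned 4.23 on the log2 scale, a distance that dividing each array by 1 number cannot alter.

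**Figure D2:**
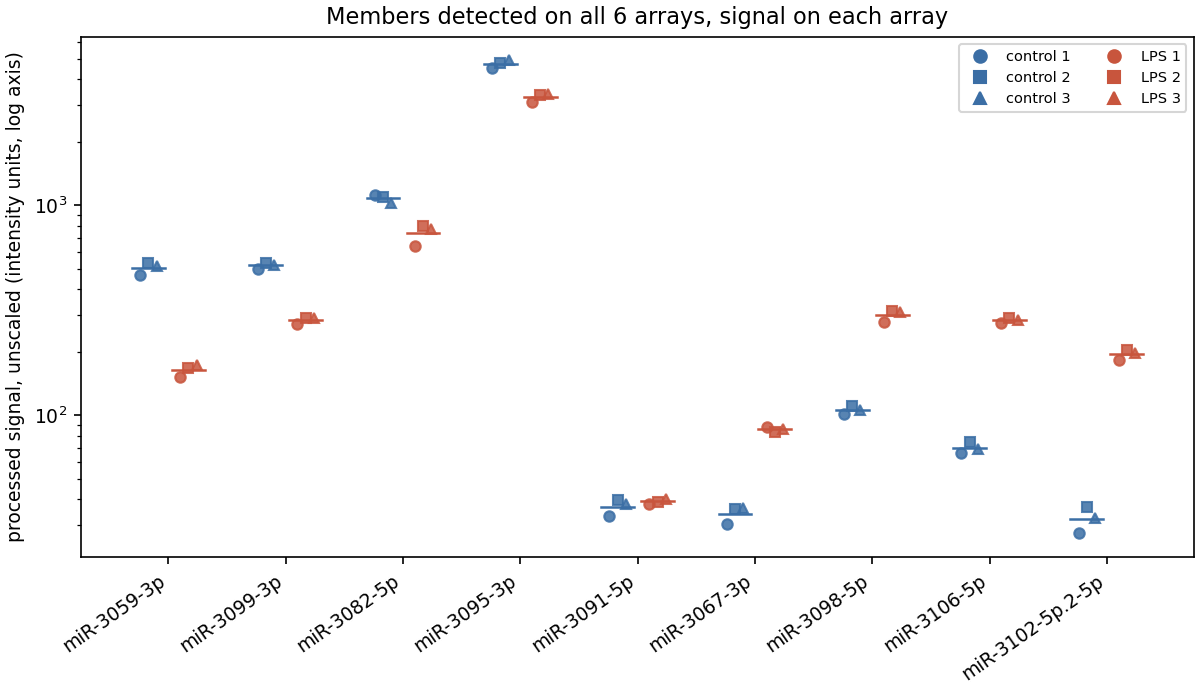
Unscaled processed signal (y axis, log scale) of the 9 members detected on all 6 arrays, ordered by their scaled change, with 1 point per array and a line at each group mean. miR-3059-3p, miR-3099-3p, miR-3082-5p and miR-3095-3p are lower on every LPS array, miR-3091-5p overlaps, and the other 4 are higher on every LPS array; heights cannot be set against each other between miRNAs.

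miR-3059-3p had the largest drop of the 9. Its signal was 465, 533 and 517 intensity units on the control arrays and 153, 168 and 173 on the LPS arrays. Every LPS array was below every control array, also before scaling. It fell by 3.84 after scaling (SE 0.039, adjusted p = 4.71e-09, limma) and by 1.62 without scaling (log2). Its hairpin lies within Mgat4c, a glycosyltransferase gene, and the files place its probe at chr10:101235382-101235395 (mm9). Its 5p arm was not detected.

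miR-3099-3p fell as well by the probe that represents it. The signals were 497, 534 and 523 in control and 273, 292 and 292 in LPS. The change was -3.08 scaled (SE 0.056, adjusted p = 2.54e-08, limma) and -0.86 unscaled. The hairpin lies within Usp29, a gene of the paternally expressed Peg3 domain, and the probe at chr7:6756357-6756370 (mm9). Its second probe gave another picture, described further on.

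miR-3082-5p and miR-3095-3p were lower in LPS with smaller unscaled differences. miR-3082-5p read 1116, 1098 and 1027 in control and 639, 796 and 771 in LPS. Its scaled change was -2.79 (SE 0.089, adjusted p = 2.20e-07, limma) and its unscaled change -0.56. Its mature sequence is built on a run of GU repeats, and its hairpin overlaps the spans of both Jmjd8 and Stub1, a ubiquitin ligase gene. miR-3095-3p read 4516, 4784 and 4904 in control and 3102, 3366 and 3395 in LPS. Its scaled change was -2.75 (SE 0.055, adjusted p = 3.75e-08, limma) and its unscaled change -0.53. Its hairpin lies within Lpar1, a receptor gene for lysophosphatidic acid. For both, no LPS array reached the lowest control array.

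These 4 were lower in LPS under all 20 alternative settings tried, none of which read miR-3099-3p by its second probe alone. The values ran from -4.30 to -1.43 for miR-3059-3p, from -3.22 to -0.67 for miR-3099-3p, from -3.24 to -0.37 for miR-3082-5p and from -3.01 to -0.34 for miR-3095-3p. The smallest drops came with scaling to the spiked-in RNAs.

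miR-3091-5p had nearly the same raw signal in both groups. It read 33.1, 39.7 and 37.7 in control and 38.0, 38.7 and 40.0 in LPS, and the groups overlapped. It was well above background on 2 of 3 control arrays. Scaling turned this into a change of -2.14 (SE 0.056, adjusted p = 9.93e-08, limma), while without scaling the change was 0.08 (adjusted p = 0.338, limma). With the spiked-in RNAs as scale it was 0.27. Its hairpin lies within Rps21, a ribosomal protein gene.

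For miR-3067-3p and miR-3098-5p the sign of the difference depended on the scale. miR-3067-3p read 30.3, 35.7 and 36.2 in control, where 2 of 3 arrays were well above background, and 87.8, 83.4 and 86.6 in LPS. All LPS arrays were higher before scaling. The scaled change was -0.88 (SE 0.081, adjusted p = 5.27e-05, limma) and the unscaled change 1.34. The probe lies at chr12:82267199-82267210 (mm9), within the span of Smoc1, a gene for a secreted matrix protein, and outside the chromosome 12 miRNA cluster. miR-3098-5p read 101, 110 and 106 in control and 277, 313 and 309 in LPS. The scaled change was -0.73 (SE 0.047, adjusted p = 8.19e-06, limma) and the unscaled change 1.50. Both rose with the percentile taken over all miRNAs, with no scaling and with the spiked-in RNAs.

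miR-3106-5p and miR-3102-5p.2-5p lay closest to the shift of the arrays. miR-3106-5p, from a hairpin within Csmd1, read 65.9, 74.5 and 69.5 in control and 275, 292 and 286 in LPS. The scaled change was -0.20 (SE 0.056, adjusted p = 0.013, limma), and the unscaled change was 2.02. Its call was lost when the slide row was a block (-0.11) and within the first row (-0.076). miR-3102-5p.2-5p read 27.4, 36.7 and 32.5 in control and 183, 204 and 199 in LPS, and 1 of the 3 control arrays was well above background. It alone of the 9 was higher after scaling, by 0.39 (SE 0.057, adjusted p = 6.46e-04, limma), and by 2.61 without scaling. Quantile normalization turned its change to -0.097, and normexp background correction to -0.62. It was 0.16 with the mean over its probes and 0.007 with the log2 values the authors deposited, neither of which passed the threshold.

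**Figure D3:**
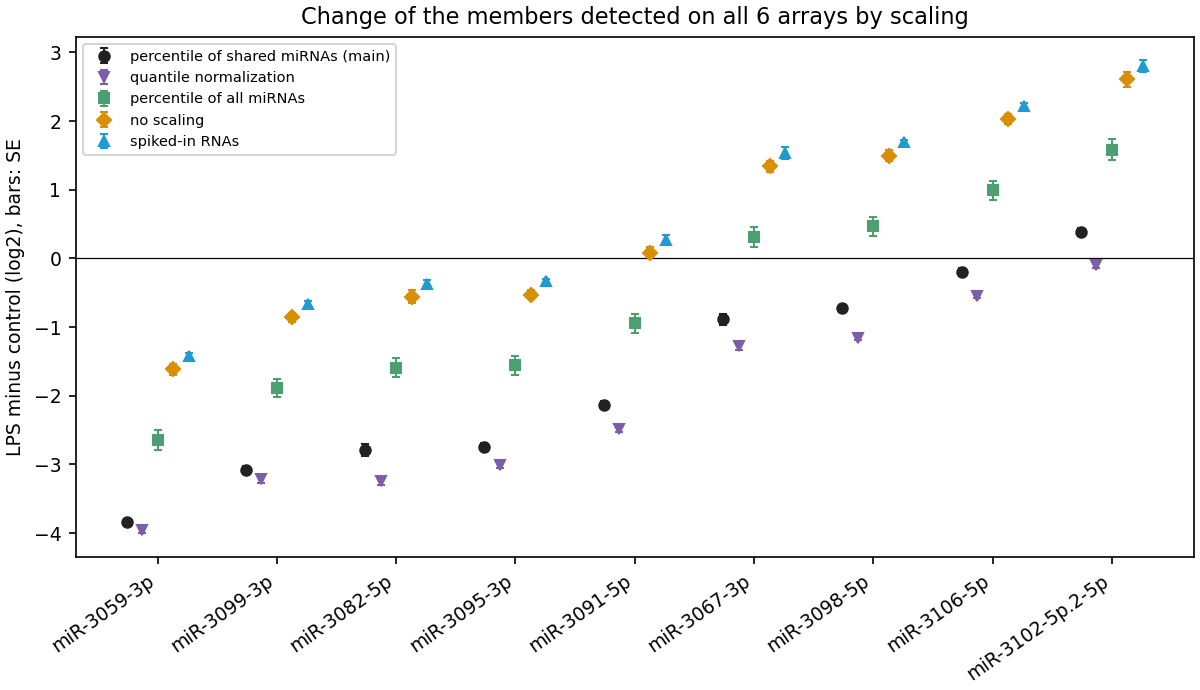
LPS minus control (log2) of the 9 members under 5 ways to put the arrays on 1 scale, with bars for the standard error of the limma fit (n = 3 arrays per group). The order of the members stays close to the same while the whole set moves. miR-3059-3p, miR-3099-3p, miR-3082-5p and miR-3095-3p, each read by its brighter probe, lie below 0 under all 5.

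Each of the 9 was read by a pair of probes that differ by 1 base at the end, and in 7 of them both probes were well above background on at least 1 array of each group. For 6 of these 7 the changes read by the pair lay within 0.1 of each other on the log2 scale. Over the 44 probes of the detected members, 38 could be placed on a mature sequence, and all 38 reach its last base. They begin between base 3 and base 16 of the mature miRNA, so 18 of the 38 overlap the seed. No probe sequence was shared with another miRNA of the array. The unscaled changes of the pair differed by 0.001 for miR-3106-5p and 0.094 for miR-3059-3p, and by values between these for miR-3067-3p, miR-3082-5p, miR-3095-3p and miR-3102-5p.2-5p. For miR-3098-5p they differed by 0.45. The second probe of miR-3091-5p was well above background on no array, and that of miR-3099-3p on no control array, where the difference was at least 1.66.

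The probes of miR-3099-3p are shown with those of miR-3059-3p, which has a pair of the same make; the base that only the longer probe has is in capitals.
miR-3099-3p, 14 bases: tccccaacctctct
miR-3099-3p, 15 bases: tccccaacctctctC
miR-3059-3p, 15 bases: ccaaccttctcttcc
miR-3059-3p, 16 bases: ccaaccttctcttccC
The 15-base probe of miR-3099-3p pairs with bases 8 to 22 of the mature sequence and gave the values above. The 14-base probe, which pairs with bases 9 to 22, read 18.9, 21.4 and 21.7 in control, well above background on no array. In LPS it read 53.1, 60.1 and 56.2, well above background on all 3. Unscaled, the longer probe fell by 0.86 on the log2 scale, while the shorter was at least 1.75-fold higher against the control arrays' lowest signal well above background. The probes of 1 miRNA thus moved in opposite directions without scaling. The longer probe was 26.3, 25.0 and 24.1 times the shorter on control arrays and 5.15, 4.87 and 5.20 times on LPS arrays. With the shorter probe at its bound in control, the ratio there was still at least 15.2. For miR-3059-3p the ratio of the probes was 1.86, 1.91 and 1.87 in control and 2.11, 1.91 and 2.00 in LPS, so both probes showed the drop. For miR-3098-5p the longer probe was 1.42, 1.51 and 1.40 times the shorter in control and 1.08, 1.04 and 1.05 times in LPS, and both probes were higher in LPS unscaled. A ratio of probes on 1 array needs no scaling. The cause of the shift between the probes was not tested.

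**Figure D4:**
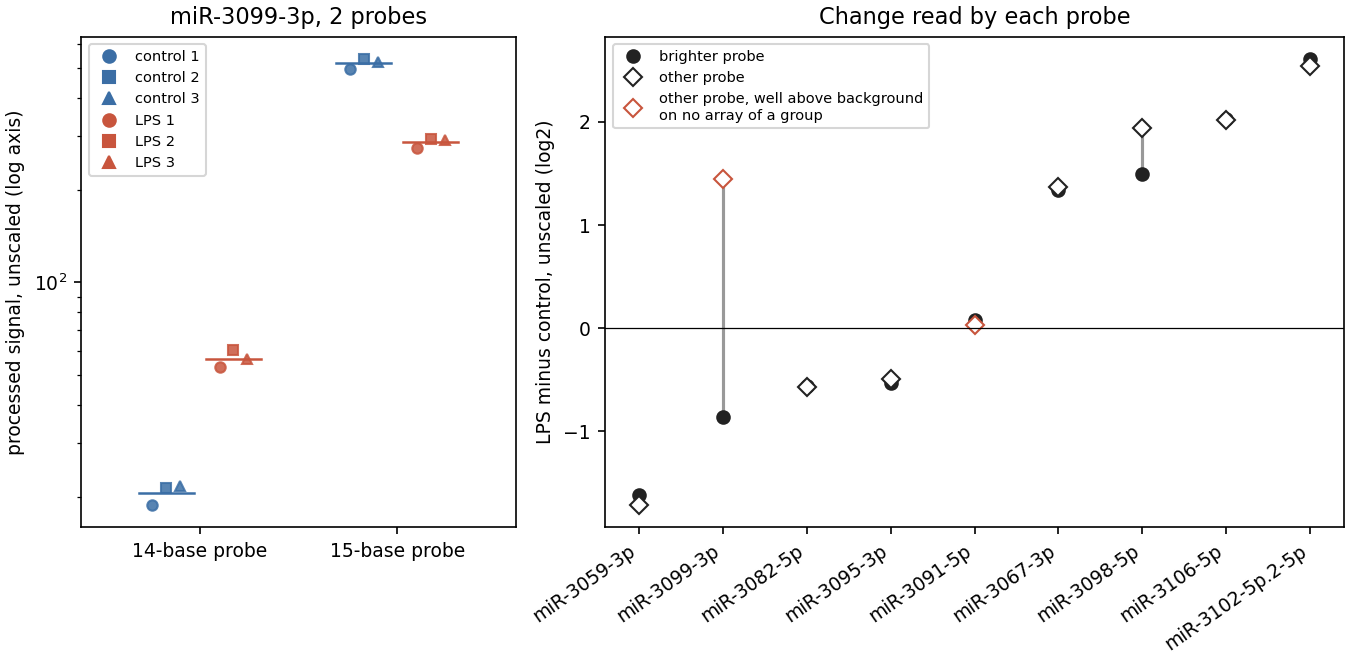
Left, unscaled signal (log axis) of both miR-3099-3p probes on each array, with lines at the group means. Right, unscaled LPS minus control (log2) read by the brighter and the other probe of each of the 9 members; red diamonds are probes well above background on no array of a group, whose change is no exact value. The miR-3099-3p probes lie on opposite sides of 0, and the pairs without a red diamond lie within 0.1 of each other except miR-3098-5p.

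The remaining 12 detected members were detected on LPS arrays and on few or no control arrays. In 11 no control array was called detected, and miR-3081-5p was called on 2 of 3. Of the 11, 10 were detected on all 3 LPS arrays, and miR-3057-5p on LPS arrays 1 and 2. No member was detected in control only. Of the 464 mouse miRNAs detected on any array, 406 were detected on all 3 LPS arrays, 204 on all 3 control arrays and 198 on all 6. Of the 21 detected members, 20, 9 and 9 were. None of the 12 was well above background on a control array, and for the 11 that could be tested, every LPS array was above every control array before scaling. The same held for 97.2% of the 214 tested miRNAs not detected on all 6 arrays. Nearly all of this follows from the filter, which these members passed by being detected on all 3 LPS arrays. Since a control array reads at most a bound for them, a fold is given only where the LPS mean exceeds the lowest signal well above background on the control arrays, scaled in the same way. On the 6 arrays that lowest signal ran from 26.3 to 35.8 units before scaling.

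miR-3081-5p and miR-3102-5p passed this bound after scaling. miR-3081-5p, from a hairpin within Boc, a hedgehog co-receptor gene, read 16.4, 22.1 and 22.8 in control and 228, 262 and 255 in LPS. It was at least 1.65-fold higher in LPS after scaling and at least 7.70-fold without. Its probe is placed at chr16:44558185-44558196 (mm9), a position taken up again with miR-3102. miR-3102-5p read 9.57, 17.4 and 19.1 in control and 159, 180 and 174 in LPS. It was at least 1.13-fold higher after scaling and at least 5.29-fold without. Both entered the test through the LPS arrays, so no p is given for them. The call of miR-3081-5p was lost with the gene total signal (0.16), and that of miR-3102-5p with quantile normalization and within the first slide row. Normexp turned both to lower in LPS, by -0.21 and -0.50.

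The other 10 had no scaled bound above 1, so no direction is read from their scaled values. miR-3077-5p, from a hairpin within Sap18, read 117, 125 and 126 in LPS and between -3.12 and 0.78 in control, at least 3.81-fold higher without scaling. miR-3084-5p, which has a hairpin in Cbwd1 and another in Eif3a, read 87.1, 94.4 and 91.9 in LPS and at most 8.27 in control, at least 2.83-fold higher without scaling. miR-3058-5p, within Nudt4, read 94.6, 84.5 and 76.4 in LPS and below 0 on every control array, at least 2.63-fold higher without scaling. These LPS signals were well above background on all 3 arrays. The same held for miR-3093-5p, with LPS signals from 69.9 to 75.4 and an unscaled bound of at least 2.28-fold. It also held for miR-3068-3p, within Alkbh1, with 33.9, 42.3 and 37.3 and at least 1.17-fold.

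The dimmest of these members lay at the edge of what the arrays read. miR-3065-3p read 35.8, 30.0 and 30.4 in LPS, well above background on 1 array, with no bound above 1 on either scale. It was the 1 tested member that was called in neither direction. It entered the test through the LPS arrays, so no p is given and the missing call does not show equal levels. miR-3075-5p, miR-3102-3p.2-3p and miR-3057-5p were well above background on no array. Their highest LPS signals were 26.8, 28.5 and 26.9, and miR-3057-5p was not tested.

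**Figure D5:**
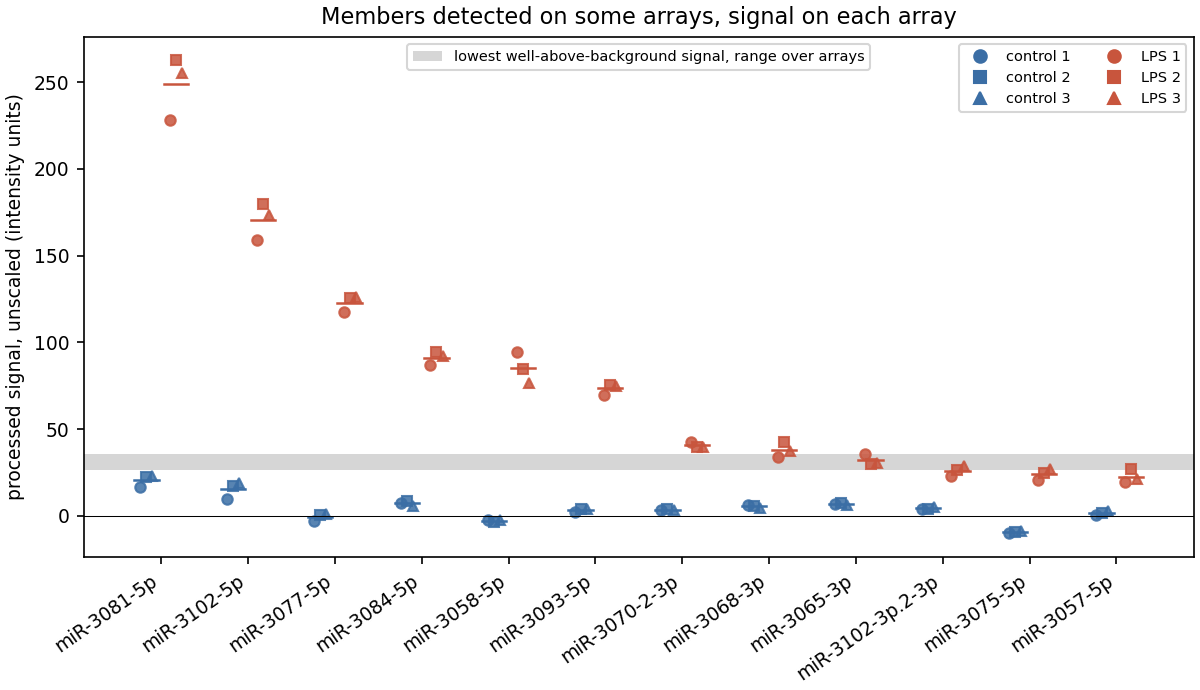
Unscaled processed signal (y axis, linear) of the 12 members detected on some arrays, with 1 point per array, lines at group means and a grey band for the lowest signal well above background, 26.3 to 35.8 over the 6 arrays. All control points lie below the band, and the LPS points run from 262 for miR-3081-5p down into or below it.

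miR-3102 is the 1 hairpin number seen through several products. RefSeq lists 4 mature products in its hairpin, a pair on each arm, and on each arm they abut with 0 bases between them. The outer 5p product, miR-3102-5p, and the inner one, miR-3102-5p.2-5p, were both detected, as was the inner 3p product miR-3102-3p.2-3p. The outer 3p product was detected on no array. The hairpin lies within the span of Arhgef17. The files place the probe of miR-3102-5p at chr7:108030830-108030841 and that of miR-3102-5p.2-5p at chr7:108030851-108030862 (mm9). RefSeq orders these products the other way along the chromosome. Both positions are recorded from the higher to the lower coordinate. Every other member hairpin recorded so, with both arms placed, likewise has its 5p probe at the lower coordinate. For miR-3081 the 5p probe is at chr16:44558185-44558196 and the 3p probe at chr16:44558217-44558230. The pattern is thus not particular to miR-3102, and the conflict was not resolved. Only miR-3102-5p.2-5p was detected in control, and unscaled it was 6.07 times as bright in LPS. The inner 3p product read 22.9, 26.4 and 28.5 in LPS and 3.75, 3.91 and 5.26 in control.

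Some members lie opposite better known miRNAs, on the other DNA strand. Both hairpins of miR-3074 face a miR-24 hairpin, and no miR-3074 product was detected, while miR-24-3p read 587 ± 46.7 in control and 6424 ± 749 in LPS (SD, n = 3 each). Mir3065 faces Mir338 within Aatk. There miR-3065-3p and miR-338-3p were both detected on the 3 LPS arrays and on no control array, and miR-3065-5p on none. miR-338-3p read 24.7 ± 1.21 in LPS and 10.9 ± 2.19 in control (SD, n = 3 each).

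miR-3070-2-3p counts as a member because its position in the files falls outside the window that defines the chromosome 12 cluster. The files place its probe at chr12:109588655-109588669, which lies inside the Mir3070b hairpin of assembly GRCm38 although the file headers name mm9. By that table it belongs to the cluster, within Rtl1. It read 42.5, 39.7 and 39.6 in LPS and at most 3.80 in control, at least 1.26-fold higher without scaling and with no bound above 1 after it. It shares its seed with miR-3070-3p, which was also detected on LPS arrays only.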

How the data were processed

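The members and all lists were chosen with earlier results of these data known. The authors deposited one scanner file per array with linear intensity values, background-subtracted by Agilent Feature Extraction 10.7.1.1 per the file headers, while the submitters' processing notes name version 9.1. A table of log2 values, normalized in a way not given in the sources used here, was deposited as well. Its column medians are 2.73 to 2.74, the direction follows the signal (r = 0.896 to 0.963 with log2 signal across 198 miRNAs), and the centring stays unknown. Coordinates are those of the files, whose headers name mm9; RefSeq tables (GRCm38.p6) gave names, neighbours and mature sequences.

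Spots of a probe, without outlier and control spots, were averaged as processed signal, and the brightest probe over the 6 arrays stood for its miRNA. Each array was scaled by the 75th percentile of those miRNAs that every array detected, then floored at 13.0 (3.70 in log2) and logged. The difference of LPS from control was fitted by limma 3.58.1 (R 4.3.3) over the 412 miRNAs detected on 3 of 3 arrays of a group. A member well above background on no array of a group got a bound. All 6 arrays came from 1 slide and 1 scan; their number limits the precision. Named were members detected on all 6 arrays, members with a bound above 1, miRNAs that share their seed and, chosen after their values were seen, the other detected members, miR-3101-3p and the facing miRNAs. The rule also names miR-155-5p, miR-146a-5p and miR-21a-5p as LPS-induced references; their scaled changes were 4.18, 1.34 and 1.36. Alternatives were other scalings, background correction, summaries, filters, floors, blocks and left-out replicates. Checked on simulated data over 412 miRNAs for LPS against control, the fit recovered 80.0% of the miRNAs changed by 0.5 on the log2 scale. It recovered 100% of those changed by 1, 2 or 3, and called 2.36% of 212 unchanged miRNAs. In the measured data 65.5% were called higher and 26.7% lower, and recovery with so many changes was not tested. Same-numbered samples did not deviate together.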

Additional observations from a re-analysis of the deposited data

How the results depend on the processing

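Of the 9 members detected on all 6 arrays, miR-3059-3p, miR-3082-5p, miR-3095-3p and miR-3099-3p kept their direction and call in all 20 settings. The other 5 changed sign in at least 1. No setting read miR-3099-3p by its shorter probe alone, which without scaling was at least 1.75-fold higher in LPS. Against 11 members higher in LPS, normexp gave 0 (all 20 tested were then lower), the filter to members detected on all 6 arrays 1, and a doubled floor 7. Against 8 lower, the percentile over all miRNAs gave 5, no scaling 4, the spiked-in RNAs 4 and normexp 20. Over the 9, the count lower was 5, 4 and 4 under the first 3 of these. The count higher, 1, became 4 with the percentile over all miRNAs, 4 with no scaling, 5 with the spiked-in RNAs, 2 with the gene total signal, and 0 with quantile normalization, normexp, the mean over probes and the value table. All 198 miRNAs detected on all 6 arrays moved too: without scaling, the share higher went from 58.1% to 78.8% and the share lower from 38.4% to 16.7%. For these other settings only the shares over all tested miRNAs are given, beside the counts further up. Signs turned with the percentile over all miRNAs, no scaling and the spiked-in RNAs for miR-3067-3p (0.31, 1.34 and 1.53), miR-3098-5p (0.47, 1.50 and 1.69) and miR-3106-5p (0.99, 2.02 and 2.21). For miR-3106-5p the gene total signal also gave 0.12. For miR-3091-5p no scaling gave 0.084 and the spiked-in RNAs 0.27. miR-3102-5p.2-5p turned to -0.097 with quantile normalization and -0.62 with normexp, and normexp turned miR-3081-5p to -0.21 and miR-3102-5p to -0.50. The gene total signal ended the call of miR-3081-5p (0.16). The cause was not tested. Leaving out each replicate in turn gave 9 to 11 members higher and 8 to 8 lower, and over the 9 members 1 to 1 higher and 8 to 8 lower. Of all tested miRNAs 63.4% to 65.4% were then higher and 26.2% to 28.9% lower. Same-numbered control and LPS samples correlated at -0.40, -0.22 and -0.28 in their deviations over 198 miRNAs, so the numbers do not pair them; the replicate block gave 10 members higher and 8 lower (65.5% and 26.7% of all tested). Leaving out miR-3070-2-3p, chosen after seeing the data, gave 10 and 8. Signal over background limits 12 of the 21 detected members, which no control array read well above background.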

Other observations

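The median pyrimidine share of the representing probe was 69.2% for the 9 members detected on all 6 arrays (43.8% to 86.7%), 63.6% for the 21 detected on any (30.8% to 86.7%) and 43.8% for the 87 not detected (7.69% to 75%). The ranges overlap, and a probe covers only part of its miRNA. The motif TCTC, searched on the probe strand only and chosen after the values were seen, occurs in the probes of 8 of the 108 members (7.41%) and in 7.39% of the 1773 other mouse miRNAs. Of these 8 members 6 were detected, 5 of them on all 6 arrays: miR-3059-3p, miR-3067-3p, miR-3095-3p, miR-3099-3p and miR-3102-5p.2-5p. Of the 100 members without it 15 were detected. Among the other mouse miRNAs 52.7% with the motif and 22.8% without it were detected. In unscaled signal 3 of the 5 were lower in LPS and 2 higher. Of the 198 miRNAs detected on all 6 arrays, 16.7% were called lower and 78.8% higher without scaling. The direction of the other mouse miRNAs with the motif was not counted, so no link between motif and direction is read. The motif ACAC, which cannot overlap TCTC and was searched and chosen in the same way, occurs in 10 member probes, and only miR-3082-5p among them was detected. Of the 98 members without ACAC 20 were detected. Among the other mouse miRNAs 23.02% with ACAC and 25.15% without it were detected. These shares are descriptions and were not tested.

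The gene total signal in the files, used only as an alternative, did not follow the probes for a few members. For miR-3057-5p it was 274, 340 and 3.12 on the LPS arrays, where the probe signals were 19.6, 26.9 and 21.1. For miR-3077-5p it was 41.0, 136 and 133 beside probe signals of 117, 125 and 126. For miR-3081-5p it was 2.12, 74.5 and 74.8 on the control arrays, beside 16.4, 22.1 and 22.8. With the gene total signal the change of miR-3081-5p was 0.16, with an SE of 1.41. No p is given, since this member entered the test through the LPS arrays.

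Of the 6 miRNAs in the same number range that the files place in the chromosome 12 cluster, 2 were detected on all 3 LPS arrays and 1 of these on all 6.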
